A study of Mus musculus with 6 samples.

Results

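Interferon-β, its receptor and a set of interferon-stimulated genes were followed through the kidneys of mice with DOCA-salt hypertension and of sham-operated mice. The set was a list of 39 gene symbols chosen by function, with no cut on a measured value but with earlier results of these data known. All 39 were among the 33696 genes counted. The set held the ligand Ifnb1 (ENSMUSG00000048806), both chains of its receptor, 4 factors that carry or extend the signal, and 32 genes known to be induced by interferon.

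Male C57BL/6 mice aged 8 to 10 weeks were used, 3 per group. The DOCA-salt mice lost the left kidney, received a pellet with 50 mg of deoxycorticosterone acetate (DOCA), a mineralocorticoid, and drank 1% NaCl for 21 days. The sham mice had a sham operation and normal water, so the effects of nephrectomy, DOCA and salt cannot be told apart. The kidneys were digested with collagenase, and each mouse gave 1 library of the 10x Genomics 3′ method, in which a unique molecular identifier (UMI) marks each captured transcript. The libraries held 93172739 to 137819127 UMIs. Of 76774 barcodes, 60561 passed the filters, 55630 were clustered after removal of likely doublets, and 451 of 60105 different barcode sequences occurred in 2 or more libraries. The median share of mitochondrial UMIs was highest in sham 3, at 25.9% against 16.1% to 19.8% in the other mice. Cells fell into 48 clusters, of which 43 could be named from marker genes and 5, with 9193 cells, could not. Macrophages numbered 145, 125 and 128 in the sham mice and 379, 505 and 555 in the DOCA-salt mice, endothelial cells 516 to 564 and 604 to 848, and cells of the 7 tubular classes 5724 to 6967 and 5574 to 6321. Not counted as macrophages were unnamed immune clusters with C1qa and C1qb among their leading genes. That led by Ghr held 16, 11 and 9 sham and 36, 151 and 158 DOCA-salt cells, and that led by Mmp12 held 3, 2 and 3 and 40, 49 and 38. The 8 macrophage markers summed to 11120 to 14835 CPM in the macrophages, against 15.3 to 38.6 CPM in the endothelial cells, and the 12 endothelial markers summed to 9585 to 12900 CPM in the endothelial cells. The clusters were named from these same markers, so the sums are no separate check of identity. Of the 12 endothelial markers 5 were higher and 4 lower in the endothelium of every DOCA-salt mouse. CPM are the UMIs of a gene per 1000000 UMIs of that mouse and cell type. They compare 1 gene between cells or mice, not different genes with each other.

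Interferon-β is secreted when a cell senses foreign or misplaced nucleic acid. It binds the receptor chains IFNAR1 and IFNAR2, after which STAT2 and IRF9 enter the nucleus and help to switch on genes with an interferon-stimulated response element in their promoter. The products degrade or sequester viral RNA, block membrane fusion and budding, sense more nucleic acid, and, as with USP18, shut the receptor off again. In the kidney, tissue macrophages, endothelium and tubules can all respond, and the response has been studied in lupus nephritis and in injury that releases self DNA or RNA.

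To show the element in these genes, the 300 bases around each start site (250 before and 50 after) in the RefSeq promoter table of GRCm38.p6 were searched on both strands for GAAANNGAAA, the core of the element. The table held 29 of the 39 genes, leaving out Ifi27l2a, Mx1, Parp14, Zbp1, Parp9, Dhx58, Rtp4, Oas2, Mx2 and Usp18. The core was found for 14 of the 29 (48.3%), while 3.99% of all 27025 genes in the table held it (3.44% of 32851 windows). These were Stat2, Ifih1, Isg15, Ifit1, Ifit3, Oas1a, Oas3, Rsad2, Bst2, Ifitm3, Gbp2, Gbp3, Gbp7 and Trim30a. The window of Ifnb1 did not hold it, and held instead GGGANNTTCC, a form of the NF-κB motif that was added to the search after the values had been seen and that 1.63% of genes held (1.47% of windows). Of the 29 members 4 held that motif (13.8%), the others being Ifit2, Ifitm3 and Gbp2. The stretches below belong to the ligand and to 4 genes whose level changed in macrophages, and the capitals mark the motif or its reverse complement. They were placed by exact match on GRCm39, at chr4:88441113-88441172 (minus strand) for Ifnb1, chr19:34618179-34618238 (plus) for Ifit1, chr12:26506537-26506596 (minus) for Rsad2, chr7:104114402-104114461 (minus) for Trim30a and chr8:71990206-71990265 (minus) for Bst2. The marked motif nearest the start ended 106, 75, 110, 26 and 114 bases before it, in that order.
Ifnb1: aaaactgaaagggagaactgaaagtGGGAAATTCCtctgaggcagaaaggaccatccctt
Ifit1: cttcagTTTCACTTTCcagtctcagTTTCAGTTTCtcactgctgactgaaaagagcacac
Rsad2: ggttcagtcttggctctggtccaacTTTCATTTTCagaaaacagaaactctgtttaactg
Trim30a: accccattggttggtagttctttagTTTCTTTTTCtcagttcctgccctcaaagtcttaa
Bst2: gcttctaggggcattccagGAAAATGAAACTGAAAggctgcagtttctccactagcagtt
A match is a description of the letters and not evidence that a factor binds there. Ifit1 and Bst2 each held the core at 2 places, which overlap in Bst2. The 4 genes were picked among those whose window holds the core, so that all 4 hold it is no result. In macrophages Ifit1 and Rsad2 fell while Trim30a and Bst2 rose, as described below. Of the other members called in macrophages, Ifnar1, Irf7, Ifit2, Oasl1 and Oasl2 had no match for the core.

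The genes were not spread evenly over the kidney. Among 15 cell types with at least 10 cells in every mouse, 19 of the 39 genes had their highest mean level over the 6 mice in endothelial cells and 14 in macrophages. The endothelial group comprised Stat2, Irf9, Irf1, Irf7, Usp18, Herc6, Ifit1, Rsad2, Cmpk2, Bst2, Gbp2, Gbp3, Gbp7, Parp9, Ifi44, Ifi35, Xaf1, Trim30a and Lgals3bp. The macrophage group comprised Ifnb1, Ifnar2, Ifih1, Dhx58, Isg15, Ifit2, Oas1a, Oas2, Oasl1, Oasl2, Mx1, Mx2, Rtp4 and Parp14. Of the rest, Zbp1, Ifitm3 and Ifi27l2a were highest in monocytes, Ifnar1 in T cells, Oas3 in dendritic cells and Ifit3 in the thin limb of the loop of Henle. Several of these orders were narrow: Rtp4 averaged 102 CPM in macrophages and 100 CPM in endothelial cells, and Mx1 65.9 CPM in macrophages and 63.0 CPM in dendritic cells. The place of some genes also differed between the groups. Oasl2 was higher in macrophages than in endothelium in sham mice (means of 211.5 and 97.1 CPM) but lower in DOCA-salt mice (110.5 and 137.4 CPM). By their DOCA-salt means Rtp4, Mx1, Oas1a and Oas3 also had another cell type highest, as Ifit1 and Dhx58 did by their sham means.

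Ifnb1, the ligand itself, was read mainly in macrophages, which held 299 of its UMIs in the sham mice (87.2% of those in all cells) and 337 in the DOCA-salt mice (78.6%). Dendritic cells followed with 17.2 ± 15 CPM (SD, n = 3) in sham and 13.9 ± 11.1 CPM in DOCA-salt mice. No UMI of Ifnb1 was found in 3925 endothelial cells, which allows a share of cells with a UMI of up to 0.0764%, for counting error alone. Ifi44, an interferon-induced gene of uncertain function, was as restricted, but to the endothelium, where 90.4% of its sham UMIs and 87.3% of its DOCA-salt UMIs were found. Ifit3, which binds viral RNA together with IFIT1, stood apart from its relatives: the thin limb held 71.8% of its UMIs in sham mice and 37.0% in DOCA-salt mice. In the thin limb cluster led by Slc14a2, the urea transporter, Ifit3 stood at 959, 1100 and 1250 CPM in the sham mice and 1160, 826 and 872 CPM in the DOCA-salt mice, so that the groups overlapped.

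**Figure D1:**
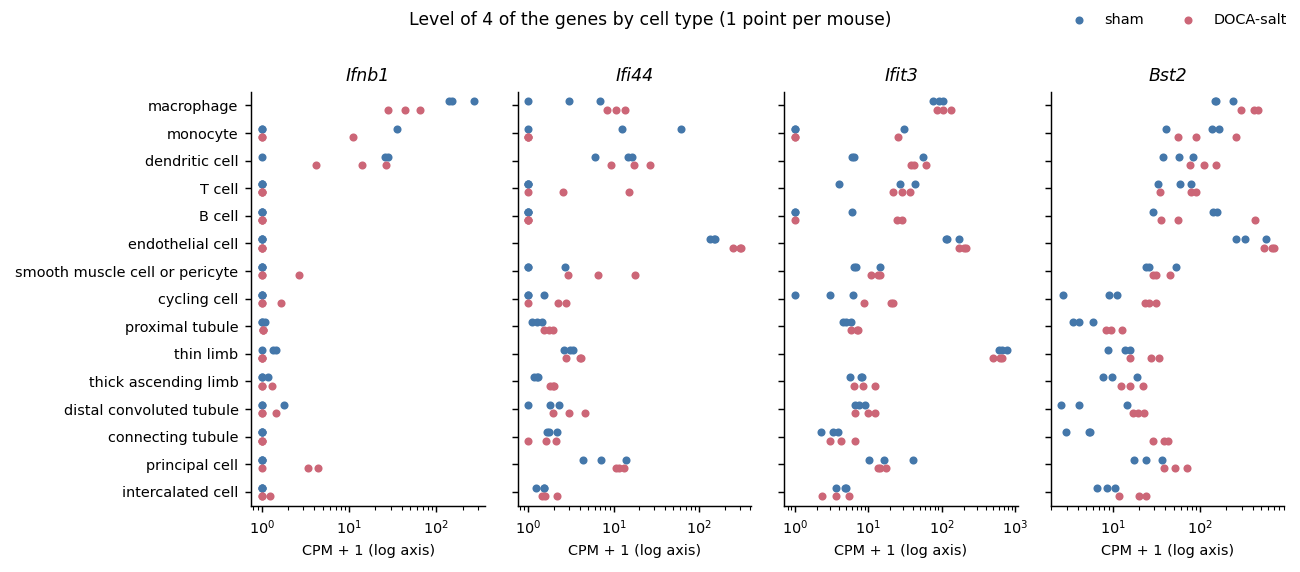
Level of Ifnb1, Ifi44, Ifit3 and Bst2 (CPM + 1, log axis) in 15 cell types, with 1 point for each of the 3 sham and 3 DOCA-salt mice. Ifnb1 is highest in macrophages, Ifi44 and Bst2 in endothelial cells and Ifit3 in the thin limb, at a mean of 636 CPM.

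Macrophages were compared first, since they hold most Ifnb1. Of the 38 members that passed the filter on low counts, 5 rose and 7 fell in DOCA-salt mice (edgeR quasi-likelihood test on UMIs summed per mouse, Benjamini-Hochberg adjusted p below 0.05 over all genes tested), and 19 had an unadjusted p below 0.05. Among all 8408 genes tested in macrophages, 5.0% passed, 2.5% in each direction. The median log2 change of the members was 0.13 and that of all genes −0.02, with 23 of 38 members above 0 against 48.6% of all genes. The set thus moved in both directions at once. Ifnb1, Ifih1, Ifit1, Ifit2, Oasl1, Oasl2 and Rsad2 fell, and Ifnar1, Irf7, Usp18, Bst2 and Trim30a rose. With library size as the only scaling, under which the median gene shifted by 0.11, 6 members rose and 5 fell. Each library was 1 mouse, so these p-values weigh the difference between the groups against the variation between mice within a group.

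Ifnb1 fell the most of the 38 members tested. It stood at 136.9, 270.8 and 149.5 CPM in the macrophages of sham mice 1, 2 and 3, and at 42.8, 27.0 and 63.9 CPM in those of DOCA-salt mice 1, 2 and 3. Every DOCA-salt mouse lay below every sham mouse, and the fitted change was a 4.48-fold fall (log2 change −2.16 ± 0.28 SE, edgeR adjusted p = 0.000293). The receptor chains that bind it were both higher in each DOCA-salt mouse, and Ifnar1 passed the test. Ifnar1 was at 37.3, 25.9 and 33.9 CPM in sham and 64.8, 76.8 and 66.7 CPM in DOCA-salt macrophages (0.98 ± 0.21, adjusted p = 0.013). Ifnar2, at 230.3, 256.8 and 207.3 CPM against 341.5, 300.4 and 316.3 CPM, did not pass (0.35 ± 0.15, adjusted p = 0.221).

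Of the factors that carry the signal, Irf7, which amplifies interferon production after a first exposure, rose from 32.7, 19.9 and 23.9 CPM to 51.3, 115.2 and 64.6 CPM (1.48 ± 0.34, adjusted p = 0.0179). DOCA-salt 2 was well above the other mice of its group, but all 3 exceeded the sham mice. Stat2 was at 46.7, 23.9 and 14.0 CPM in sham and 34.4, 55.4 and 62.8 CPM in DOCA-salt macrophages, with overlap (0.70 ± 0.32, adjusted p = 0.259). Irf9, the DNA-binding partner of STAT2, was at 35.8, 39.8 and 27.9 CPM and 37.8, 39.1 and 38.0 CPM (0.03 ± 0.22, adjusted p = 0.964). Irf1, a factor shared with interferon-γ, gave 0.13 and did not pass.

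Of the sensors, Ifih1, which encodes the double-stranded RNA sensor MDA5, was at 701.8, 792.4 and 775.5 CPM in sham macrophages and 334.1, 335.8 and 478.1 CPM in DOCA-salt macrophages. The groups stayed well apart, with a 2.15-fold fall (−1.1 ± 0.17, adjusted p = 0.00116). Dhx58, which encodes LGP2 of the same sensor family, and Zbp1, a sensor of Z-form nucleic acid, gave 0.48 and 0.37 and did not pass.

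Of 3 IFIT and 5 OAS family members tested, 2 fell in each family and none rose. IFIT proteins bind viral RNA ends. Ifit1 was at 104.3, 83.6 and 99.7 CPM in sham and 33.8, 48.4 and 53.2 CPM in DOCA-salt macrophages (−1.19 ± 0.20, adjusted p = 0.00203). Ifit2 was at 673.8, 788.5 and 544.2 CPM and 317.2, 370.2 and 556.2 CPM (−0.80 ± 0.20, adjusted p = 0.0257), where DOCA-salt 3 reached into the sham range. Unlike these, Ifit3 did not pass, at 74.7, 101.5 and 91.7 CPM in sham and 85.1, 101.8 and 132.8 CPM in DOCA-salt macrophages (0.16 ± 0.20, adjusted p = 0.755). In the OAS family, the enzymes OAS1A, OAS2 and OAS3 make an oligoadenylate messenger that activates RNase L. Oasl2 was at 224.1, 205.1 and 205.3 CPM in sham and 100.3, 108.2 and 123.2 CPM in DOCA-salt macrophages (−1.05 ± 0.15, adjusted p = 0.000627), with little spread within either group. Oasl1, which restrains the translation of Irf7, was at 457.5, 300.6 and 396.7 CPM and 167.4, 218.3 and 244.9 CPM (−0.99 ± 0.18, adjusted p = 0.00406). The enzymes Oas1a, Oas2 and Oas3 gave positive changes (0.18, 0.84 and 0.50) that did not pass.

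Of 4 genes at the Mx and Rsad2 loci, Rsad2 passed. It encodes viperin, a radical SAM enzyme that makes a chain-terminating nucleotide, and was at 249.0, 354.4 and 283.1 CPM in sham and 122.3, 178.9 and 240.3 CPM in DOCA-salt macrophages (−0.82 ± 0.21, adjusted p = 0.034). Its neighbour Cmpk2, a mitochondrial nucleotide kinase, gave −0.50, and the GTPases Mx1 and Mx2 gave −0.71 and −0.43, all short of the threshold. Isg15, a ubiquitin-like modifier, was lower on average without passing, at 228.8, 205.1 and 291.1 CPM in sham and 131.9, 182.3 and 215.1 CPM in DOCA-salt macrophages (−0.57 ± 0.19, adjusted p = 0.115). Usp18, the protease that removes ISG15 and dampens the receptor, rose from 12.4, 7.96 and 7.97 CPM to 24.2, 32.7 and 21.7 CPM (1.33 ± 0.36, adjusted p = 0.0457). Its sham values rest on few UMIs, with 11 in the largest cluster of sham macrophages. Herc6, the mouse ligase for ISG15, gave 0.07.

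Bst2, which tethers budding virus to the cell surface (tetherin), was at 149.4, 236.9 and 147.5 CPM in sham and 460.9, 295.4 and 407.1 CPM in DOCA-salt macrophages, a 2.02-fold rise (1.01 ± 0.21, adjusted p = 0.00749). Trim30a, a TRIM protein that dampens NF-κB signalling, was at 70.0, 73.7 and 49.8 CPM and 125.7, 133.2 and 136.7 CPM (0.91 ± 0.18, adjusted p = 0.00534). In both genes the groups did not overlap. Ifitm3, which blocks fusion in endosomes, gave 0.77 (adjusted p = 0.119), and Xaf1, a pro-apoptotic factor, 0.74 (adjusted p = 0.198). The other members tested gave changes between −0.25 and 0.41 and did not pass: the chaperone Rtp4, the guanylate-binding proteins Gbp2, Gbp3 and Gbp7, the ADP-ribosyltransferases Parp9 and Parp14, and Ifi35, Ifi27l2a and Lgals3bp. Ifi44 was below the filter, with 4 UMIs in the sham and 75 in the DOCA-salt macrophages.

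**Figure D2:**
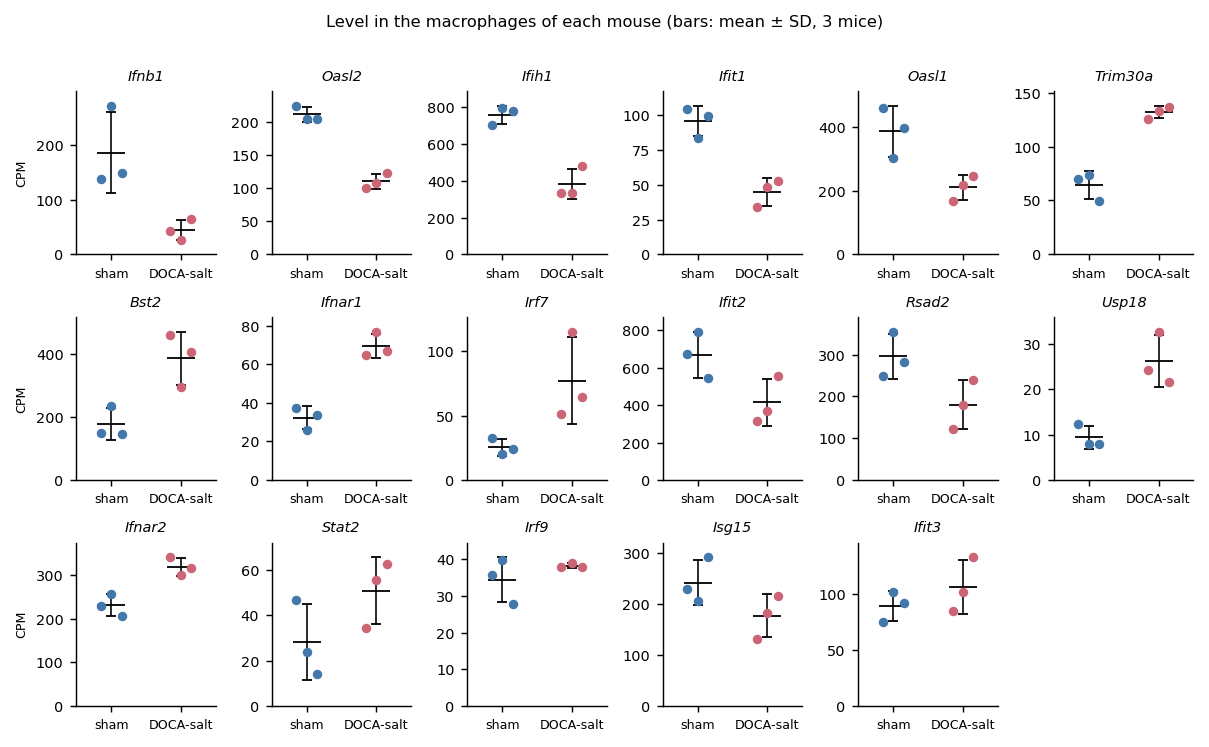
Level of 17 members (CPM, linear axes from 0) in the macrophages of 3 sham and 3 DOCA-salt mice, 1 point per mouse with mean ± SD. Ifnb1 lies at 136.9 to 270.8 CPM in sham and 27.0 to 63.9 CPM in DOCA-salt mice, and Bst2, Trim30a, Ifnar1, Irf7 and Usp18 lie higher in every DOCA-salt mouse.

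The macrophages of the groups came largely from different clusters. The cluster led by Mmp13, Ccl3 and C1qa held 73.6% of sham macrophages (293 of 398) but 2.78% of those from DOCA-salt mice (40 of 1439), while the cluster led by C1qa, Ccl7 and Apoe held 45 (11.3%) and 526 (36.6%). Without the Mmp13 cluster, an alternative chosen after seeing the data, 3 of 38 members passed and 10 had an unadjusted p below 0.05, while 0.877% of 7979 genes passed. Ifnb1 still fell (−2.08, adjusted p = 0.00246), and Trim30a (1.33, adjusted p = 0.0187) and Bst2 (1.09, adjusted p = 0.0321) still rose. The other 9 calls were lost. Oasl2, Ifih1, Ifit1 and Rsad2 gave −0.45, −0.48, −0.41 and −0.27, Ifnar1, Irf7 and Usp18 gave 0.32, 0.92 and 1.27, and Oasl1 (0.03) and Ifit2 (0.18) changed sign. With only the Mmp13 cluster, the sole one with at least 10 cells of every mouse, none of the 22 members tested passed with edgeR, 11 had an unadjusted p below 0.05, and 1 of 2720 genes (0.0368%) passed. Ifnb1, Ifih1 and Oasl1 gave −1.32, −1.31 and −1.84 there (adjusted p = 0.491, 0.126 and 0.0751).

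Within clusters the values of the 3 mice were pooled and carry 95% exact Poisson intervals that cover counting error only. In the C1qa, Ccl7 and Apoe cluster Ifnb1 was at 343 CPM (272 to 426) in sham and 66.0 CPM (57.4 to 75.5) in DOCA-salt mice. The sham value was carried by sham 2, at 470 CPM, against 163 CPM in sham 1, and sham 3 had 4 cells, while the DOCA-salt mice were at 53.3, 41.3 and 103 CPM. In the Mmp13 cluster Ifnb1 was at 177 CPM (154 to 203) and 77.1 CPM (42.1 to 129), with 155, 239 and 161 CPM in the sham and 138, 21.4 and 76.5 CPM in the DOCA-salt mice. Ifnb1 was thus lower in DOCA-salt cells of both clusters in every mouse with at least 10 cells. Some of these values rest on few cells. Sham 1 and 2 gave 15 and 26 cells of the C1qa, Ccl7 and Apoe cluster. The DOCA-salt mice gave 10, 10 and 20 cells of the Mmp13 cluster, with 14 UMIs of Ifnb1. Pooled Ifih1 was also lower, but mice overlapped in the former cluster, where sham 1 and 2 were at 600 and 796 CPM and the DOCA-salt mice at 341, 369 and 644 CPM. Its pooled values were 754 CPM (647 to 874) and 461 CPM (438 to 486) in the former and 833 CPM (782 to 887) and 352 CPM (271 to 450) in the latter. Between these clusters, pooled Isg15 was lower in DOCA-salt mice in the latter alone. It was at 206 CPM (152 to 273) and 245 CPM (228 to 263) in the former and 275 CPM (246 to 307) and 160 CPM (107 to 229) in the latter. For Bst2 the C1qa, Ccl7 and Apoe cluster gave 167 CPM (119 to 228) in sham and 377 CPM (356 to 399) in DOCA-salt mice, and the Mmp13 cluster 170 CPM (148 to 196) and 215 CPM (153 to 294), where the intervals overlap.

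**Figure D3:**
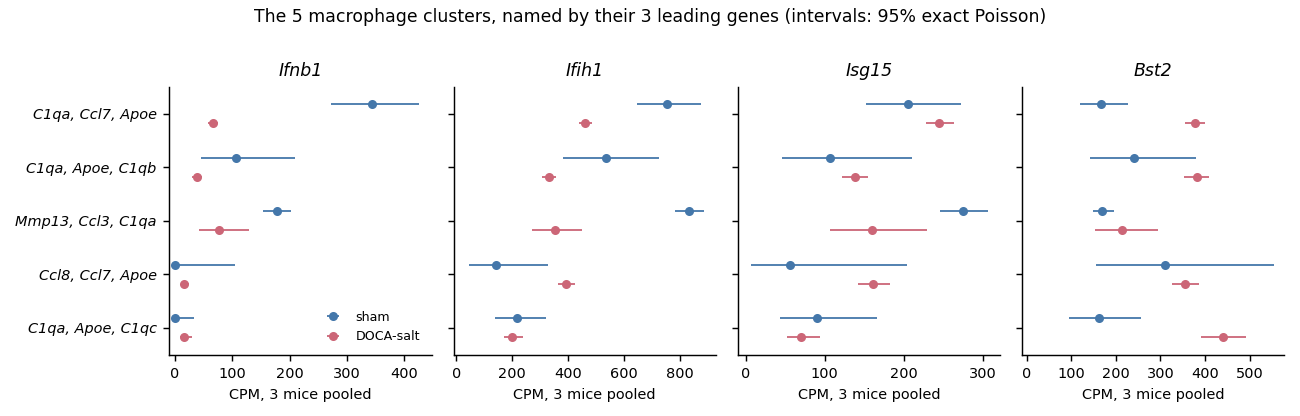
Pooled level of Ifnb1, Ifih1, Isg15 and Bst2 (CPM, 3 mice pooled) in the 5 macrophage clusters of each group, with 95% exact Poisson intervals. The sham point for Ifnb1 lies above the DOCA-salt point in the 3 clusters with the most cells. In the other 2, with 7 and 34 sham cells, it lies below. There no sham UMI of Ifnb1 was found, against 26 and 11 UMIs in DOCA-salt mice (16.5 and 16.1 CPM).

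The share of macrophages with at least 1 UMI was computed after thinning each cell to 1000 UMIs, since the median depth was 3895 UMIs in sham and 4963 UMIs in DOCA-salt macrophages. This left out 5 of 398 and 22 of 1439 cells. Ifnb1 was detected in 9.72%, 14.0% and 10.2% of macrophages in the sham mice and in 3.50%, 2.42% and 5.02% in the DOCA-salt mice. The means were 11.3% ± 2.34 and 3.65% ± 1.31 (SD, n = 3; unthinned 25.3% and 11.7%), with an exact two-sided permutation p of 0.1, the smallest that 3 mice against 3 can give. The same share in tubular cells, with median depths of 9087 and 9728 UMIs, was 0.00524% and 0.00928%, and no endothelial cell had a UMI, so the share in macrophages lay far above that in cells taken to lack the gene.

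Detection of the falling genes below was also lower in DOCA-salt macrophages. Ifih1, Oasl2 and Ifit1 were picked by their adjusted p in the sums of these same cells, so their shares are no separate support. Ifih1 was found in 37.1% ± 1.22 of macrophages in sham mice and 22.3% ± 2.73 in DOCA-salt mice (unthinned 63.0% and 50.0%), Oasl2 in 17.7% ± 0.604 and 9.79% ± 1.11 (unthinned 43.7% and 33.4%), and Ifit1 in 6.77% ± 0.787 and 3.44% ± 0.300 (unthinned 19.8% and 11.7%), each with an exact permutation p of 0.1. For Isg15 the shares were 18.3% ± 2.79 and 12.3% ± 2.64 (exact permutation p = 0.1), and unthinned 45.2% and 36.2% (exact permutation p = 0.2). Ifit3 was found in 6.80% ± 0.241 and 7.19% ± 1.47 (exact permutation p = 0.9; unthinned 18.6% and 23.4%). In tubular cells the thinned shares of Ifih1, Oasl2, Ifit1 and Isg15 lay below 1%, at means of 0.0868% to 0.847%, and that of Ifit3 was 2.05% in sham and 1.53% in DOCA-salt mice.

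When each mouse was left out in turn, the calls of Ifnb1, Oasl2, Ifih1, Ifit1, Oasl1, Trim30a and Ifnar1 held in 6 of 6 fits. Bst2 lost its call without sham 1 (adjusted p = 0.062) and Irf7 without sham 3 (adjusted p = 0.0605). The calls of Ifit2 and Rsad2 held in 2 of 6 fits, being lost without sham 2, DOCA-salt 1 or DOCA-salt 2 for both, and also without sham 1 for Ifit2 (adjusted p up to 0.131) and without sham 3 for Rsad2 (up to 0.134). Usp18 held its call only without DOCA-salt 3, with adjusted p up to 0.145 in the other fits. The 8 proximal tubule markers summed to 485.8 to 980.8 CPM in the sham and 375.3 to 623.3 CPM in the DOCA-salt macrophages, 1 of them lower in every DOCA-salt mouse. The 6 fibroblast markers summed to 0.0 to 1.99 CPM and 18 to 35.7 CPM, with 4 higher in every DOCA-salt mouse, and no marker of either list was at 0 in all mice. Myeloid markers also moved: the 7 monocyte markers summed to 75.8 to 90.3 CPM in sham and 147.1 to 177.8 CPM in DOCA-salt macrophages (1 of 7 higher and 1 lower in every DOCA-salt mouse, Ly6c2 at 0). The 5 neutrophil markers summed to 15.9 to 24.9 CPM and 45.4 to 53.7 CPM (1 higher, Retnlg at 0), and the 7 dendritic cell markers to 33.8 to 48.2 CPM and 13 to 24.8 CPM (1 lower, none at 0). Of 22 genes that respond to tissue dissociation 2 rose (Ier3 0.94 and Nr4a1 0.85) and 3 fell (Dnajb1 −1.27, Hsp90aa1 −0.68 and Hspe1 −0.63). The part of these signals in the result was not tested.

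Other genes of the pathway were taken from lists that shared no member with the set. Among all 8408 genes tested in macrophages, 2.5% rose and 2.5% fell, and whether the lists differed from these shares was not tested. Of 41 other interferon ligands, receptors and signalling genes, 22 could be tested in macrophages, and 3 rose and 1 fell (median 0.25). Socs3, a feedback inhibitor of JAK kinases, gave 0.89 ± 0.17, the receptor chains Il10rb and Ifngr2 gave 0.81 and 0.67, and the kinase Jak2 fell by 0.74 on the log2 scale. Of 60 further type I interferon-stimulated genes, 45 were tested, and 5 rose and 1 fell (median 0.31). The chemokine Cxcl10 fell (−0.98 ± 0.17, adjusted p = 0.00274), while Slfn5 (1.58), Ms4a4c (1.80) and Ly6e (1.02) rose. Of 26 interferon-γ-inducible GTPases and class I presentation genes, 22 were tested and 1, the GTPase Iigp1, rose (2.48 ± 0.55, adjusted p = 0.0141), with a list median of 0.01. All these calls come from the same macrophage sums as those of the members. Whether they hold without the Mmp13 cluster, where 0.877% of 7979 genes passed, was not examined.

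Endothelial cells, in which 19 of the members were highest, were compared next. Of 36 members tested, 6 rose and none fell with the edgeR test in DOCA-salt mice, while 10.9% of 12846 genes passed (6.01% higher and 4.87% lower). DESeq2 called 1 member lower, and 16 members had an unadjusted p below 0.05 in edgeR. The median change was 0.31 for the members and −0.03 for all genes, and 28 of 36 members lay above 0 against 46.3% of genes. The share of members that rose was above the share of all genes, but the members were chosen with earlier results of these data known. The genes that passed were Ifi44, Zbp1, Cmpk2, Herc6, Trim30a and Xaf1, of which Trim30a was also higher in macrophages.

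Ifi44 was at 149.7, 154.4 and 133.9 CPM in sham and 248.0, 303.4 and 307.3 CPM in DOCA-salt endothelium (0.96 ± 0.12, adjusted p = 0.00118). Zbp1 had the largest fold of the 6, from 16.7, 9.55 and 14.1 CPM to 27.1, 50.5 and 37.7 CPM (2.80-fold, 1.49 ± 0.26, adjusted p = 0.00515). In neither gene did the groups overlap. Cmpk2 was at 73.3, 67.5 and 68.7 CPM in sham and 103.0, 102.6 and 108.1 CPM in DOCA-salt endothelium (0.56 ± 0.11, adjusted p = 0.00737). Herc6 was at 97.6, 90 and 97.0 CPM and 129.0, 143.8 and 157.8 CPM (0.58 ± 0.12, adjusted p = 0.0114). The spread of these 2 genes within each group was small, so that rises of 1.48-fold and 1.49-fold passed. The last calls were close to the threshold. Trim30a was at 128.8, 107.4 and 98.4 CPM and 142.2, 159.8 and 158.5 CPM (0.44 ± 0.12, adjusted p = 0.0414), and Xaf1 at 60.8, 43.3 and 45.0 CPM and 66.8, 83.2 and 68.3 CPM (0.53 ± 0.15, adjusted p = 0.0496).

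**Figure D4:**
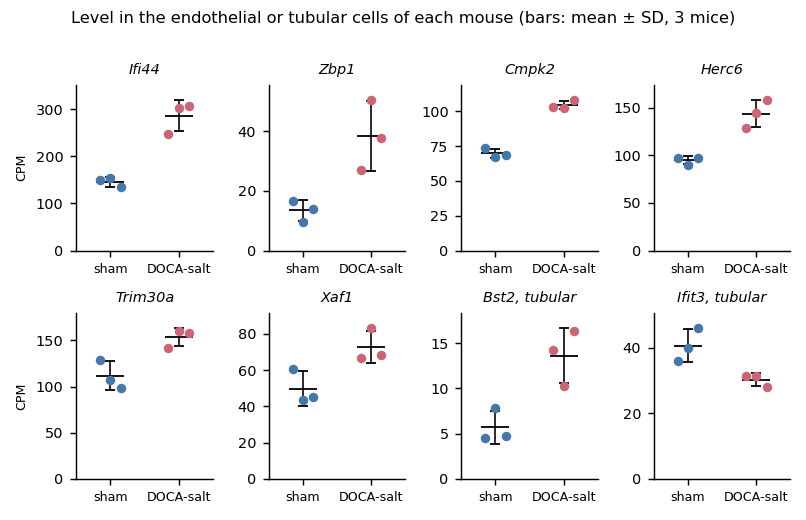
Level of the 6 members called in endothelial cells and of Bst2 and Ifit3 in tubular cells (CPM, linear axes from 0), 1 point per mouse with mean ± SD for 3 sham and 3 DOCA-salt mice. Ifi44 lies at 133.9 to 154.4 CPM in sham and 248.0 to 307.3 CPM in DOCA-salt endothelium.

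Several members missed the threshold by little. Irf1 was lower in each DOCA-salt mouse, at 420.8, 472.5 and 449.7 CPM in sham and 360.2, 345.8 and 329.7 CPM in DOCA-salt endothelium (−0.39 ± 0.11, adjusted p = 0.0504). Oasl2 (0.49), Ifit3 (0.52), Bst2 (0.72), Ifit2 (0.45) and Ifnar2 (0.35) gave adjusted p between 0.0608 and 0.0892. Rsad2, at a mean of 791 CPM over the 6 mice, gave 0.37 (adjusted p = 0.142), and Isg15 0.30 (adjusted p = 0.318). Ifnar1 gave 0.03, Stat2 −0.18 and Irf9 0.04, so that none of these 3 showed a change past the spread between mice. Ifnb1 (0 UMIs), Oas3 (1 UMI) and Mx1 (16 and 16 UMIs) were not tested.

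Mice of the same group were ordered alike over many endothelial members. Sham 1 had the highest level of the 3 sham mice in 28 of 36 members and sham 2 the lowest in 25, while DOCA-salt 2 was highest of its group in 28 and DOCA-salt 1 lowest in 27. Bst2 and Irf1 went against this order, with sham 2 the highest of the sham mice in each. In macrophages DOCA-salt 1 was also the lowest of its group in 28 of 38 members and DOCA-salt 2 the highest in 19, and in tubular cells these counts were 27 and 25 of 36.

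Endothelial clusters differed in level and in their part of the class. The cluster led by Fabp4, Flt1 and Plvap held 46.7% of 1639 sham and 62.9% of 2286 DOCA-salt endothelial cells, and that led by Tm4sf1, Meis2 and Adgrl4 33.1% and 15.1%. Ifi44 was at 255, 252 and 241 CPM in sham and 343, 376 and 390 CPM in DOCA-salt cells of the former, and at 111, 106 and 116 CPM and 120, 157 and 155 CPM in the latter. The groups thus stayed apart within both clusters, by a smaller ratio than in the whole class. In the cluster led by Cldn5, Fbln5 and Ptprb, with 18.9% and 17.4% of the cells, Ifi44 was at 60.0, 84.8 and 61.9 CPM and 98.0, 58.5 and 83.5 CPM, where the groups overlapped. Zbp1 was at 28.1, 17.9 and 26.1 CPM and 40.1, 62.5 and 50.4 CPM in the Fabp4, Flt1 and Plvap cluster. In the Tm4sf1 cluster it was at 13.4, 5.27 and 12.2 CPM and 10.8, 16.2 and 9.10 CPM, where the groups overlapped. These values per cluster were not tested.

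Without DOCA-salt 3 the endothelial count fell to 3, with Herc6 among the calls lost (adjusted p = 0.0642), and the calls of Trim30a and Xaf1 were lost without sham 3 or any 1 of the DOCA-salt mice (adjusted p up to 0.15 and 0.173). Median depth was 3646 UMIs in sham and 5843.5 UMIs in DOCA-salt endothelial cells. In the endothelial sums the 8 macrophage markers ranged from 15.3 to 20.1 CPM in sham and 33.7 to 38.6 CPM in DOCA-salt mice, with 4 higher and 1 lower in every DOCA-salt mouse. The 6 fibroblast markers ranged from 5.48 to 6.82 CPM and 23.8 to 38.7 CPM (5 higher in every DOCA-salt mouse), and the 5 markers of cycling cells from 7.67 to 39.8 CPM and 130.1 to 195.0 CPM (5 higher). None was at 0 in all mice, and their part in the result was not tested. Of the dissociation genes, 1 rose and 3 fell (median −0.33), Egr1 by 0.86 on the log2 scale being the largest fall among those called.

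Among all 12846 genes tested in endothelium, 6.01% rose and 4.87% fell. Whether the lists of other pathway genes differed from these shares was not tested. They gave 2 of 21 ligands, receptors and signalling genes higher in endothelium (Ifngr2 0.84 and the transcription factor Irf8 0.88) and none lower, with a median of 0.18. Of 52 further type I interferon-stimulated genes 8 rose (median 0.15), among them the DNA-binding family members Ifi204 (1.05), Ifi206 (2.58) and Ifi213 (0.95) and the ISG15 conjugating enzyme Ube2l6 (0.71). None of 24 interferon-γ-inducible GTPases and class I genes passed the edgeR test, 6 had an unadjusted p below 0.05, and the median was −0.08.

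Tubular cells of the 7 classes were summed and compared last among the main types. Of 36 members tested, 6 rose and none fell with the edgeR test, while 6.13% of 17925 genes passed (4.11% higher and 2.02% lower). DESeq2 called 1 member lower, and 17 members had an unadjusted p below 0.05 in edgeR. The median change was 0.36 for members and −0.01 for all genes, with 31 of 36 members above 0 against 48.1% of genes. Levels were low. Bst2 was the only called member with a mean of at least 5 CPM, at 4.54, 7.80 and 4.71 CPM in sham and 14.2, 10.3 and 16.3 CPM in DOCA-salt tubules (2.35-fold, 1.23 ± 0.24, adjusted p = 0.0223). The groups did not overlap. The others were Trim30a (0.75), Oasl2 (0.90), Ifi44 (0.89), Rsad2 (0.91) and Gbp7 (0.77), the last a guanylate-binding protein, with adjusted p between 0.0317 and 0.0497.

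Besides these, 5 of the 36 members were not above 0 (Ifit3, Gbp2, Irf1, Ifi35 and Ifit2), and none of the 5 passed. Ifit3 was at 36.1, 39.8 and 46.0 CPM in sham and 31.3, 31.4 and 27.9 CPM in DOCA-salt tubules, lower in each mouse without passing (−0.46 ± 0.12, adjusted p = 0.0627). Thin limb cells, its main source, made up 702 of the 19262 sham and 437 of the 17537 DOCA-salt tubular cells, and within the thin limb its change was −0.17 (adjusted p = 0.767). Isg15 gave 0.71 (adjusted p = 0.0589), Lgals3bp, a secreted glycoprotein, 1.00 (0.0677) and Ifi27l2a, a small hydrophobic interferon-induced protein, 1.71 (0.08). Ifnb1 (10 and 20 UMIs), Oas1a (13 and 45) and Oas3 (3 and 15) were not tested.

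The tubular count changed when single mice were left out, which also leaves fewer samples. It was 0 without sham 1, without sham 3 or without DOCA-salt 3, 2 without DOCA-salt 1, 1 without DOCA-salt 2 and 8 without sham 2. The change of Bst2 stayed between 1.08 and 1.53 in these fits, although its call was lost in 4 of 6 (without sham 1, sham 3, DOCA-salt 1 or DOCA-salt 3). Macrophage markers summed to 37.8 to 59.8 CPM in sham and 61.7 to 75.5 CPM in DOCA-salt tubular cells, with 6 of 8 genes higher in every DOCA-salt mouse. The 12 endothelial markers summed to 16.4 to 28.1 CPM and 29.8 to 47.1 CPM (5 higher in every DOCA-salt mouse), and the 6 fibroblast markers to 2.09 to 4.93 CPM and 17.4 to 22.6 CPM (6 higher). None was at 0 in all mice, and their part in the tubular result was not tested. None of the 22 dissociation genes passed in tubular cells, where 19 lay below 0 (median −0.25) and 4 had an unadjusted p below 0.05 in edgeR. Among all 17925 genes tested in tubular cells, 4.11% rose and 2.02% fell, and whether the pathway lists differed from these shares was not tested. Of the other pathway genes, 2 of 25 ligands, receptors and signalling genes rose (Tlr7 2.27 and Sting1 1.07, both under 2 CPM), 5 of 47 type I interferon-stimulated genes rose (median 0.38) and 1 of 26 interferon-γ-inducible and class I genes, B2m, rose, at 71.0, 96.8 and 72.3 CPM in sham and 149.8, 147.1 and 173.7 CPM in DOCA-salt tubules (0.94 ± 0.14, adjusted p = 0.00751).

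**Figure D5:**
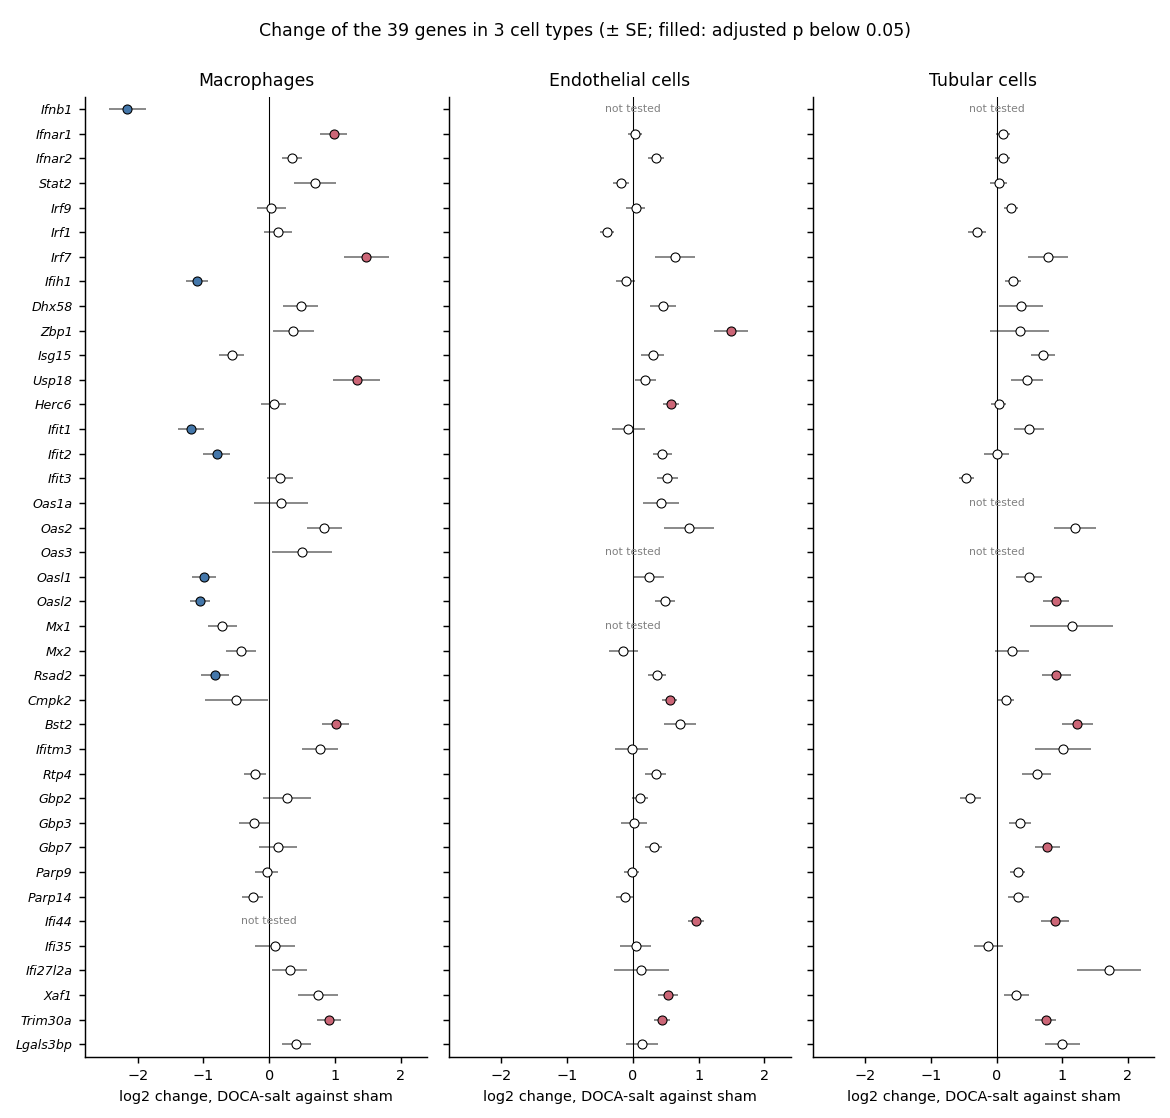
Log2 change (DOCA-salt against sham, ± SE) of the members tested in macrophages (38), endothelial cells (36) and tubular cells (36), from edgeR on sums of 3 mice per group. Filled points passed an adjusted p of 0.05, with 5 higher and 7 lower in macrophages and 6 higher in each of the others.

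Bst2 rose in 5 of the 7 tubular classes when each was tested alone. In the proximal tubule 8 of 33 members rose and none fell with the edgeR test (7.21% of 16041 genes passed), with a median of 0.82, 31 above 0 and 23 with an unadjusted p below 0.05. Bst2 was at 2.57, 5.03 and 3.15 CPM in sham and 8.64, 7.31 and 11.9 CPM in DOCA-salt proximal tubule (1.31, adjusted p = 0.0243). The other 7 were Oasl2 (1.41), Gbp7 (1.1), Parp14 (1.1), Oasl1 (1.09), Lgals3bp (1.09), Rsad2 (1.01) and Herc6 (0.68). With finer clusters (Leiden resolution 2) some proximal tubule clusters differed in size between the groups. That led by Ptgds, Ttr and Fgg held 25, 15 and 27 sham and 307, 501 and 805 DOCA-salt cells. That led by Kap, Inmt and Cndp2 held 1022, 594 and 740 and 192, 83 and 84. The part of such shifts in the result was not tested. In the connecting tubule Bst2 was at 4.37, 1.94 and 4.56 CPM and 37.7, 28.1 and 41.8 CPM, an 8.42-fold difference (3.07 ± 0.34, adjusted p = 1.41e-05). Parp14 rose there (1.25) and Irf1 fell (−1.08), 3 of 13 members in a class in which 22.9% of 10016 genes passed.

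The distal convoluted tubule gave Bst2 (1.70) and Ifit2 (1.64), 2 of 16 members against 7.46% of 10011 genes. In intercalated cells Bst2 (1.27) and Trim30a (1.22) rose and Irf1 fell from 37.1, 48.9 and 38.7 CPM to 16, 14.6 and 20.4 CPM (−1.25, adjusted p = 0.00155), 3 of 16 members against 6.52% of 11731 genes. Principal cells gave Ifitm3 (1.14), Bst2 (1.13) and Mx2 (1.57), 3 of 28 members against 7.3% of 10729 genes. In each of these calls the groups did not overlap. Many of the tubular calls depended on the settings. Over the alternatives that gave a value, Bst2 and Irf1 in the connecting tubule and Irf1 in intercalated cells were called in 15 of 15. Ifit2 in the distal convoluted tubule was called in 5 of 11 (adjusted p up to 0.285), Mx2 in principal cells in 7 of 15 (up to 0.149) and Parp14 in the connecting tubule in 8 of 14 (up to 0.161). The 8 members of the proximal tubule were called in 8 to 12 of 15, and Bst2 in the distal convoluted tubule in 9 of 14 and in intercalated and principal cells in 10 of 15 each. Of 21 dissociation genes tested, 3 rose and 7 fell in the connecting tubule, and 6 fell and none rose in intercalated cells. In the distal convoluted tubule 8 rose and 2 fell, and in principal cells 3 rose and none fell. In the proximal tubule 1 of 22 rose and 1 fell. Their part in these calls was not tested.

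Bst2 was also higher on average in the thick ascending limb and the thin limb (0.57 and 1.03) without passing. In the thick ascending limb none of 26 members passed and 7 had an unadjusted p below 0.05 (1.54% of 12181 genes passed), and in the thin limb none of 28 and 3 (0.637% of 11612 genes passed).

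T cells gave 1 of 22 members, Ifih1, at 28.6, 26.5 and 20.5 CPM in sham and 102.4, 78.4 and 60.3 CPM in DOCA-salt mice (1.60 ± 0.32, adjusted p = 0.0234), against 0.967% of 6102 genes. This is the opposite direction to macrophages, although the difference between these types was not tested. T cell clusters also differed in size between the groups. That led by Tox, Ctla4 and Cd28 held 15, 14 and 25 sham and 69, 43 and 66 DOCA-salt cells. That led by Xcl1, Kcnq5 and Ifng held 28, 36 and 35 and 12, 12 and 11, and the part of this in the change of Ifih1 was not tested. None of the members tested passed with edgeR in smooth muscle cells or pericytes (12 tested, 1 with an unadjusted p below 0.05, 1.77% of 7476 genes), cycling cells (15, 6 and 1.12% of 9654), dendritic cells (30, 2 and 0.196% of 5617), B cells (3, 0 and 0.0% of 1706) and monocytes (4, 0 and 0.0% of 1484). Fibroblasts, of which the sham mice gave 24, 6 and 9, and NK cells, neutrophils and urothelial cells were too few to test.

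Whether the change itself differed between cell types was tested in models with the sums of both types and each mouse as a block. Between macrophages and tubular cells 14 of 39 members differed, 2 more positive and 12 more negative in macrophages, while 4.55% of 17372 genes differed. Rsad2 (difference −1.66 ± 0.17, adjusted p = 6.11e-20), Ifih1 (−1.28 ± 0.14, adjusted p = 1.76e-17) and Oasl2 (−1.89 ± 0.22, adjusted p = 3.5e-15) had the smallest p. Oasl2 and Rsad2 were called in opposite directions in these cell types, falling in macrophages and rising in tubules. The Mmp13 cluster, however, held 73.6% of sham but 2.78% of DOCA-salt macrophages. Without it Rsad2, Ifih1 and Oasl2 gave −0.27, −0.48 and −0.45 in macrophages and were not called. Differences between cell types were not tested without this cluster.

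Between macrophages and endothelial cells 15 of 39 members differed, 7 more positive and 8 more negative in macrophages, while 7.31% of 13105 genes differed. Oasl2 (−1.39), Ifit2 (−1.13), Oasl1 (−1.09), Rsad2 (−1.05), Zbp1 (−0.98), Ifit1 (−0.97), Ifih1 (−0.85) and Isg15 (−0.72) were more negative in macrophages. Usp18 (1.30), Ifnar1 (1.1), Stat2 (1.03), Irf7 (1.00), Ifitm3 (0.93), Irf1 (0.67) and Trim30a (0.63) were more positive. For Zbp1, Trim30a, Usp18, Irf7 and Ifnar1 the fitted change was positive in both cell types, and for Ifih1 and Ifit1 negative in both.

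Endothelial and tubular cells differed in 9 of 37 members, 4 more positive and 5 more negative in endothelium, while 10.3% of 18041 genes differed. Ifi27l2a (−1.54), Ifitm3 (−1.07), Lgals3bp (−0.82), Bst2 (−0.46) and Parp14 (−0.41) were more positive in tubules, and Ifit3 (1.00), Herc6 (0.56), Gbp2 (0.52) and Cmpk2 (0.44) in endothelium. The change of Bst2 in macrophages did not differ past the threshold from that in tubules (−0.15, adjusted p = 0.786) or endothelium (0.41, adjusted p = 0.0732). Each of the 3 tests of differences shares a cell type with each of the others, so their counts are not independent.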

How the data were processed

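Libraries of 6 mouse kidneys (10x Genomics, 3′ v3.1 chemistry) were analysed. The UMI counts deposited by the authors for each gene and barcode came from Cell Ranger (9.0.0 per the labels, 8.0.1 per the file headers) on GRCm39, and were whole numbers without normalization. The release of the gene annotation is not given in the sources used here. Reads of near-identical genes can be split or dropped by such counting, so Ifit1, Ifit3, Oas1a, Trim30a and the Gbp genes, which have close paralogs, are uncertain to that extent, as are Irf9 and Rtp4, which overlap another gene on the same strand. Free RNA was not subtracted.

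Barcodes were kept from 170 genes and 500 UMIs upward if mitochondrial UMIs made up no more than 50% and hemoglobin UMIs no more than 5%. Scrublet scores (scanpy 1.11.5) replaced DoubletFinder and removed the top-scoring barcodes at 0.8% per 1000 barcodes. The 2000 most variable genes, 30 principal components, 15 neighbors and Leiden clustering (python-igraph 0.11.9, resolution 1) gave the clusters, named from fixed markers without batch correction. For each mouse the UMIs of a cell type were summed where every mouse had at least 10 cells, and compared with edgeR 4.0.16 (R 4.3.3; its filter on low counts, TMM, quasi-likelihood F test, Benjamini-Hochberg over all genes tested, threshold 0.05). On simulated counts with 200 changed genes the test recovered 73.5% in macrophages (5 false among 152 calls), 81.5% in endothelial cells (10 among 173), 86.0% in tubular cells (15 among 187) and, for differences between macrophages and tubular cells, 66.0% (7 among 139). Genes changed 2-fold were recovered less often than those changed 4-fold, at 63% and 84% in macrophages and 69% and 94% in endothelial cells. These rates were 78% and 94% in tubular cells, and 40% and 92% for differences between macrophages and tubular cells. Recovery of changes under 2-fold was not tested. The simulated counts of the cell types were drawn independently, with no effect shared within a mouse and no shift between clusters. The rates thus do not cover those features of the data. Shares of cells were compared with exact permutation tests. Scripts ran in Python 3.11.15 with scikit-learn 1.9.0, pandas 2.3.3, scipy 1.17.1 and numpy 2.4.6.

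The members and lists were chosen with earlier results of these data known. Values of every mouse are given for members called with a mean of 5 CPM or more in macrophages, endothelial or tubular cells (at most 12 each) and, in macrophages, for Ifnb1, Ifnar1, Ifnar2, Stat2, Irf9, Irf7, Isg15 and Ifit3. Members called in other cell types are named with their change, those below the filter with their UMIs, and of each pathway list up to 4 genes by adjusted p in macrophages. Shares are given for Ifnb1, Isg15, Ifit3 and the 3 members with the smallest adjusted p in macrophages, and promoters for Ifnb1 and up to 4 members with the motif. Further values of mice and genes were named after they were seen: the members close to the threshold in endothelium, Ifit3 in tubular cells, the members by endothelial and thin limb cluster, and pathway genes called in endothelial and tubular cells. DESeq2 1.42.0 was tried as an alternative, as were size factors from DESeq2 in edgeR, scaling by library size, testing all genes with any count, a block for the mouse number, dropping 1 mouse at a time, a limit of 20% mitochondrial UMIs, keeping doublets, Leiden resolution 2, leaving out clusters over 90% from 1 mouse or shallow clusters, proximal tubule in place of all tubules, thinning to 2000 UMIs or none, only macrophage clusters with 10 cells of every mouse and, added after seeing the data, macrophages without the Mmp13 cluster and each mouse left out for the shares.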

Additional observations from a re-analysis of the deposited data

Results flagged for a closer look

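The change between DOCA-salt and sham mice differed between cell types by a test of the difference itself for the members below. Groups of 3 mice are too small for the rule on single outlying samples, which was not applied. The values are differences of log2 changes from edgeR, and no explanation was weighed. Macrophages were more negative than tubular cells for Ifnb1 (−3.09), Oasl2 (−1.89), Mx1 (−1.78), Rsad2 (−1.66), Ifit1 (−1.59), Oasl1 (−1.41), Ifih1 (−1.28), Ifi27l2a (−1.27), Isg15 (−1.21), Ifit2 (−0.77), Rtp4 (−0.74) and Parp14 (−0.50), and more positive for Ifit3 (0.69) and Ifnar1 (0.94). The tubular side rested on few UMIs for Ifnb1 (10 in sham and 20 in DOCA-salt mice) and Mx1 (15 and 33). Macrophages were more negative than endothelial cells for Oasl2 (−1.39), Ifit2 (−1.13), Oasl1 (−1.09), Rsad2 (−1.05), Zbp1 (−0.98), Ifit1 (−0.97), Ifih1 (−0.85) and Isg15 (−0.72), and more positive for Usp18 (1.30), Ifnar1 (1.1), Stat2 (1.03), Irf7 (1.00), Ifitm3 (0.93), Irf1 (0.67) and Trim30a (0.63). Endothelial cells were more negative than tubular cells for Ifi27l2a (−1.54), Ifitm3 (−1.07), Lgals3bp (−0.82), Bst2 (−0.46) and Parp14 (−0.41), and more positive for Ifit3 (1.00), Herc6 (0.56), Gbp2 (0.52) and Cmpk2 (0.44). The sham and DOCA-salt macrophages came largely from different clusters, and these tests were not repeated within a cluster.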

How the results depend on the processing

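Of 103 alternative counts of called members 76 lay within 1.5 times the main count, and of 685 values of named members 527 kept direction and side of the threshold, 148 lost the call, 1 gained it (Stat2 in macrophages without the filter on low counts) and 9 changed sign. Leaving out 1 mouse gave 9 to 13 calls in macrophages (3 when the Mmp13 cluster was left out, and 0 in that cluster alone, the only one with 10 cells of every mouse), 3 to 9 in endothelial cells, 0 to 8 in tubular cells and 6 to 34 in the other types, where the main count was 20. For differences it gave 10 to 13 of macrophages against tubules, 9 to 16 of macrophages against endothelium (9 without sham 3) and 5 to 9 of endothelium against tubules (5 without DOCA-salt 3). In the other types the counts outside 1.5 times were 6, 34 and 11 without sham 1, 2 and 3, and 8 and 9 without DOCA-salt 2 and 3.

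DESeq2 gave 10 calls in endothelial and 10 in tubular cells. Without the filter on low counts the counts were 14 in endothelial cells, 11 in tubular cells, 59 in the other types and 14 for endothelium against tubules. The tubular count was 2 at 20% mitochondrial UMIs or less, and that of the other types was 42 with doublets kept and 31 at Leiden resolution 2. The cause was not tested. The mouse numbers did not pair the mice (correlations of deviations −0.464 to −0.0176), and with the replicate number as a block there were 9 calls in macrophages, 2 in endothelial cells, 0 in tubular cells and 7 in the other types. The block and DESeq2 were not run for differences between cell types.

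Without the Mmp13 cluster Oasl1 (0.03), Ifit2 (0.18) and Isg15 (0.25) changed sign. Irf9 in macrophages did so with doublets kept (−0.06), at Leiden resolution 2 (−0.06), at 20% mitochondrial UMIs (−0.00) and without sham 3 (−0.04, range over mice −0.04 to 0.17). Ifit3 did so in the Mmp13 cluster alone (−1.50) and without DOCA-salt 3 (−0.01, range −0.01 to 0.29), and its share of cells changed by −0.403 percentage points without DOCA-salt 3 (range −0.403 to 1.03). Depth limits low members: Ifi44 in macrophages and Ifnb1 outside them rest on few UMIs.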
